A study of Homo sapiens with 18 samples.

Results

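BCAT1 was silenced in SKM1, a human acute myeloid leukaemia cell line that arose after myelodysplastic syndrome, and its expression was compared with that of SKM1 cells given a control hairpin. The comparison holds the arrays whose sample titles begin with SKM1, which are 6 of the 18 arrays of the series: 3 of cells transduced with the short hairpin RNA shBCAT1-3 (shBCAT1) and 3 of cells transduced with the non-targeting hairpin shNT. SKM1 cells grew in RPMI with 20% fetal calf serum, transduced cells were isolated by flow cytometric sorting 48 h after transduction, and 200 ng of total RNA per sample was amplified and labelled for 1-colour Illumina BeadChip arrays. All 6 samples were transduced with a hairpin and passed through the sort, so neither group is untransduced SKM1. The remaining 12 arrays hold the same pair of hairpins in HL-60, a promyelocytic line grown with 10% serum, and in MOLM13, a monocytic line grown with 20% serum, again with 3 arrays per hairpin. A single sequence against BCAT1 was used, so the comparison is of that hairpin with shNT and an effect of the hairpin on other transcripts cannot be told apart from an effect of BCAT1 loss. Whether replicates 1 to 3 came from separate cultures is not stated in the labels, and the spread behind each p-value may therefore be technical.

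BCAT1 is the cytosolic branched-chain aminotransferase. It moves the amino group of leucine, isoleucine or valine onto alpha-ketoglutarate, which yields glutamate and a branched-chain ketoacid, and the reaction can run in both directions. Alpha-ketoglutarate is also the co-substrate of a large family of dioxygenases, among them the prolyl hydroxylases that mark the hypoxia factor HIF1A for destruction and the TET and JmjC enzymes that demethylate DNA and histones. BCAT1 expression is high in many acute myeloid leukaemias, where granule proteins, surface receptors and lineage factors mark how far a cell has moved along the granulocytic or monocytic path. The BCAT1 probe read 121, 133 and 127 with shBCAT1, against 1207, 1239 and 1217 with shNT (log2 difference -3.27, SE 0.08, adjusted p = 4.20e-18). These intensities, in the authors' normalized units and with no background taken off here, left 10.4% of the shNT level, and the shBCAT1 arrays lay far below all of the shNT arrays. Folds of weak probes may be understated, since part of their intensity can be background. The log2 differences of BCAT1 were -3.34 in HL-60 and -2.77 in MOLM13, and the difference between SKM1 and their mean did not pass the test (adjusted p = 0.31). Taken line by line, the change in SKM1 minus that in MOLM13 was -0.49 (adjusted p = 0.00819), a larger fall in SKM1, and minus that in HL-60 it was 0.08 (adjusted p = 0.796).

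The 6 arrays were alike in brightness and close to each other. Median probe intensity lay between 90.96 and 91.43, the median within-group SD of a gene was 0.0819 on the log2 scale in SKM1, against 0.118 in HL-60 and 0.111 in MOLM13, and Pearson's r between arrays within an SKM1 group was 0.996 to 0.997 across genes. Of the myeloid markers, the transcription factor SPI1 averaged 2197 with shBCAT1 and 2336 with shNT, lysozyme (LYZ) 3070.1 with shBCAT1 and 4270.5 with shNT and the granule enzyme MPO 2498 with shBCAT1 and 11689 with shNT, so the defining markers of a myeloid line were present. The 5 tested erythroid and megakaryocytic markers lay near the median of all probe values of 92.1, with summed intensities of 437 to 449 with shBCAT1 and 434 to 459.6 with shNT, and none passed the test. Among 6 lymphoid markers only the cytotoxic granule gene NKG7 was bright, at 548 with shBCAT1 and 514 with shNT, and the summed intensities were 1027 to 1046 with shBCAT1 and 973 to 1026 with shNT. Of the epithelial and packaging cell markers, KRT8, KRT18 and COL1A1 lay between 82.6 and 108, while EPCAM averaged 1208 with shBCAT1 and 1473 with shNT and VIM 2091 with shBCAT1 and 2496 with shNT. EPCAM was called lower (-0.29, adjusted p = 0.0317), a call lost without shBCAT1 replicates 1, 2 or 3 or shNT replicates 1 or 2 (adjusted p up to 0.159).

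Silencing shifted a minority of the transcriptome. Of 15288 genes with a probe above the median brightness in at least 1 group, 712 were higher with shBCAT1 (4.66%) and 992 lower (6.49%) at a Benjamini-Hochberg adjusted p under 0.05 (limma, 1 fit of 6 group means over all 18 arrays). At least 1.5-fold changes were made by 116 rising and 265 falling genes, and at least 2-fold changes by 27 and 58. All 3 shBCAT1 arrays lay above all shNT arrays for 15.9% of the genes and below them for 17.5%, and the median log2 difference of all tested genes was -0.0033. In the same fit 9.98% of genes were higher and 8.87% lower with shBCAT1 in HL-60, and 10.3% higher and 10.7% lower in MOLM13. Fitted alone, the 6 SKM1 arrays called 3000 genes and a fit with array weights called 3089, and each included all 1704 of the pooled fit. Counts of gene list members below are those of the pooled fit and run higher in these fits. The largest rise was that of ALOX5AP, followed by FGR, ANXA1, FCMR, LFNG and CD86. BCAT1 fell most, ahead of PRG2, PFKFB4, MPO, BCL11A, BEND5 and SNRNP27.

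**Figure D1:**
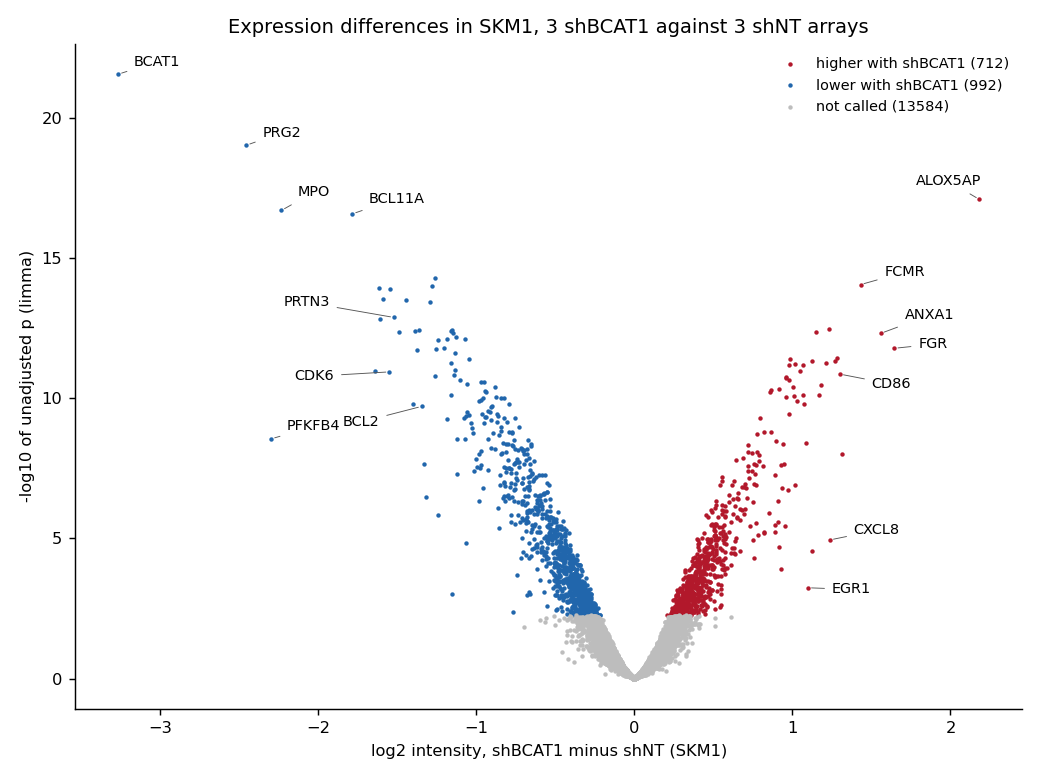
Each point is 1 of 15288 genes in SKM1, plotted by its log2 intensity with shBCAT1 minus shNT (x axis) and the -log10 of its unadjusted limma p (y axis), with red for the 712 higher and blue for the 992 lower at an adjusted p under 0.05. BCAT1 stands farthest left at -3.27 with PRG2 at -2.45, and ALOX5AP stands farthest right at 2.18.

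Azurophil granules are the first granules that a neutrophil precursor makes, and they store the peroxidase MPO and the serine proteases ELANE, PRTN3 and AZU1. These genes fell together in SKM1. MPO read 2146, 2785 and 2564 with shBCAT1, against 11329, 11322 and 12417 with shNT (log2 difference -2.23, SE 0.10, adjusted p = 7.62e-14), which is 4.70-fold lower. Proteinase 3 (PRTN3) read 2839, 2931 and 3078 with shBCAT1, against 8432, 8463 and 8474 with shNT (log2 difference -1.52, SE 0.10, adjusted p = 1.43e-10). Neutrophil elastase (ELANE) read 3967, 3763 and 4061 with shBCAT1, against 8293, 8463 and 8058 with shNT (log2 difference -1.07, SE 0.08, adjusted p = 4.21e-10). For each of these the shBCAT1 arrays lay below all shNT arrays by more than the spread within either hairpin. Azurocidin (AZU1), an inactive relative of elastase with antimicrobial activity, read 2189, 1993 and 2139 with shBCAT1, against 4109.6, 4199.8 and 4044 with shNT (log2 difference -0.97, SE 0.11, adjusted p = 8.28e-07). BPI, the bactericidal protein that binds lipopolysaccharide, read 743, 686 and 786 with shBCAT1, against 1531, 1588 and 1517 with shNT (log2 difference -1.07, SE 0.19, adjusted p = 0.00045). Of 16 tested azurophil genes 6 fell, which is 37.5% against 6.49% of all genes, and 2 rose (12.5%, against 4.66%). Their median log2 difference was -0.27. In RNA of a whole culture, fewer cells of a type and less RNA per cell cannot be told apart. The sixth fall was that of the serpin SERPINB10 (-0.41), close to background at 105 with shBCAT1 and 139.5 with shNT. The elastase inhibitor SERPINB1 rose (0.57), averaging 1321 with shBCAT1 and 889 with shNT, as did RAB27A, a small GTPase of granule release (0.45). The RAB27A call was lost without shBCAT1 replicate 1 or shNT replicates 1 or 3 (adjusted p up to 0.0914).

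The changes of MPO, ELANE and AZU1 in SKM1 were set against those in the other lines, where several of these genes lay at an end of the measured scale. In each of the 6 groups between 49 and 69 genes averaged above 12000 and the highest gene averaged between 14607 and 15212, so a change near that level may be compressed. The log2 differences of MPO were 0.02 in HL-60 and -0.93 in MOLM13, those of ELANE 0.00 and 0.03, and those of AZU1 0.18 and 0.03. The change in SKM1 minus the mean of both other changes was -1.78 (SE 0.12, adjusted p = 6.26e-10) for MPO, -1.09 (SE 0.09, adjusted p = 3.94e-08) for ELANE and -1.07 (SE 0.13, adjusted p = 1.52e-05) for AZU1, and each also passed against either line alone. ELANE lay near the top of the scale in MOLM13, at 14136 with shBCAT1 and 13896 with shNT, and at the level of dim probes in HL-60, at 87.0 and 86.8, so neither line gave a comparison free of these limits. MPO averaged 14510.0 with shBCAT1 and 14293 with shNT in HL-60, also near the top. AZU1 averaged 952 with shBCAT1 and 838 with shNT in HL-60, and 12372 and 12203, near the top, in MOLM13. PRTN3 fell in HL-60 too (-1.11) but not in MOLM13 (0.01), and the difference between SKM1 and HL-60 did not pass the test (adjusted p = 0.0899).

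**Figure D2:**
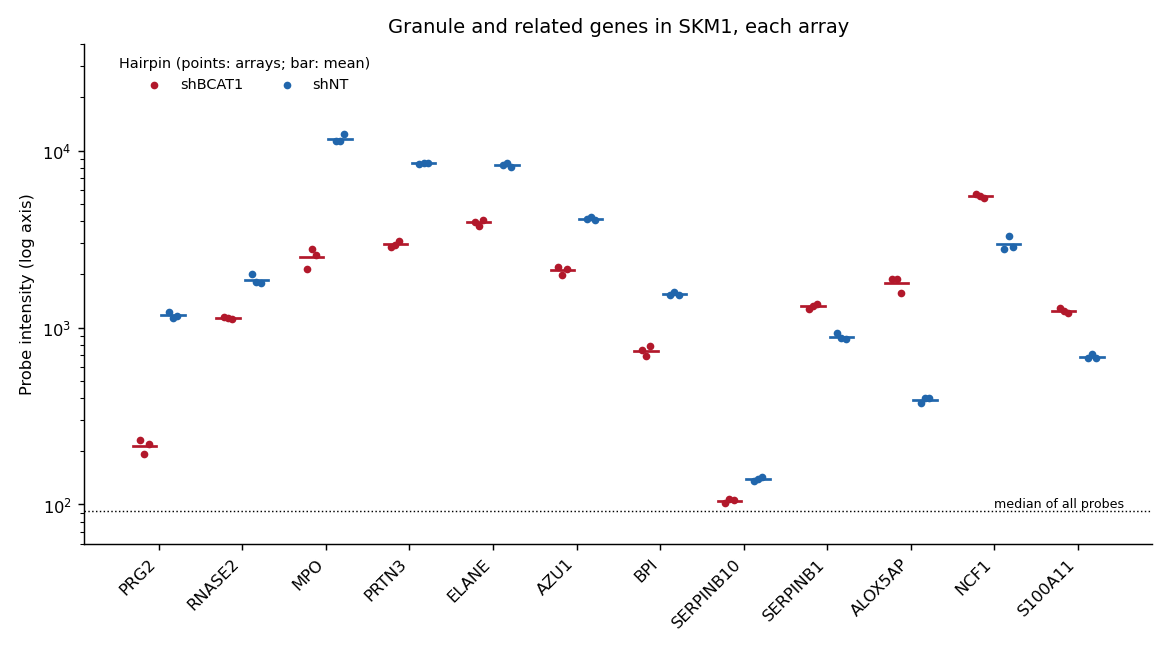
Probe intensity on a log axis in each of the 6 SKM1 arrays (points) with group means (bars), shBCAT1 in red on the left and shNT in blue on the right of each gene, and the median of all probes as a dotted line. PRG2, RNASE2, MPO, PRTN3, ELANE, AZU1, BPI and SERPINB10 were lower with shBCAT1, while SERPINB1, ALOX5AP, NCF1 and S100A11 were higher, and no gene shown had overlapping groups.

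AZU1, PRTN3 and ELANE lie side by side on chromosome 19, and their neighbours were looked up after these values were seen. The run from PLPPR3 through AZU1, PRTN3 and ELANE to CFD spans 51.2 kb (GRCh38.p14, chr19:812488-863641) and holds 5 protein-coding genes. It lies between the nearest genes not called, PTBP1 and MED16, so the fall of all 5 follows from how it was drawn. Of all tested genes 6.49% fell. CFD encodes complement factor D, the serine protease that starts the alternative pathway, and it averaged 1883 ± 52.5 with shBCAT1 and 3179 ± 210.3 with shNT (SD, n = 3 each; log2 difference -0.75, SE 0.07, adjusted p = 8.04e-08). PLPPR3, a membrane protein related to lipid phosphatases, averaged 145 with shBCAT1 and 293 with shNT (log2 difference -1.01, SE 0.13, adjusted p = 3.04e-06), and it also had -0.76 in HL-60 and -0.51 in MOLM13. Beyond CFD, MED16, R3HDM4, KISS1R and ARID3A had log2 differences of -0.03, -0.06, 0.00 and -0.08. Of these KISS1R was dim. On the other side PTBP1, a splicing factor read at 4358 with shBCAT1 and 5114 with shNT, had -0.24 (adjusted p = 0.0600), the dim genes MISP and PRSS57 had 0.01 and 0.00, and PALM fell (-0.61). CFD had log2 differences of 0.16 in HL-60 and 0.05 in MOLM13, so its change in SKM1 differed by -0.86 (SE 0.09, adjusted p = 1.24e-06) from their mean.

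**Figure D3:**
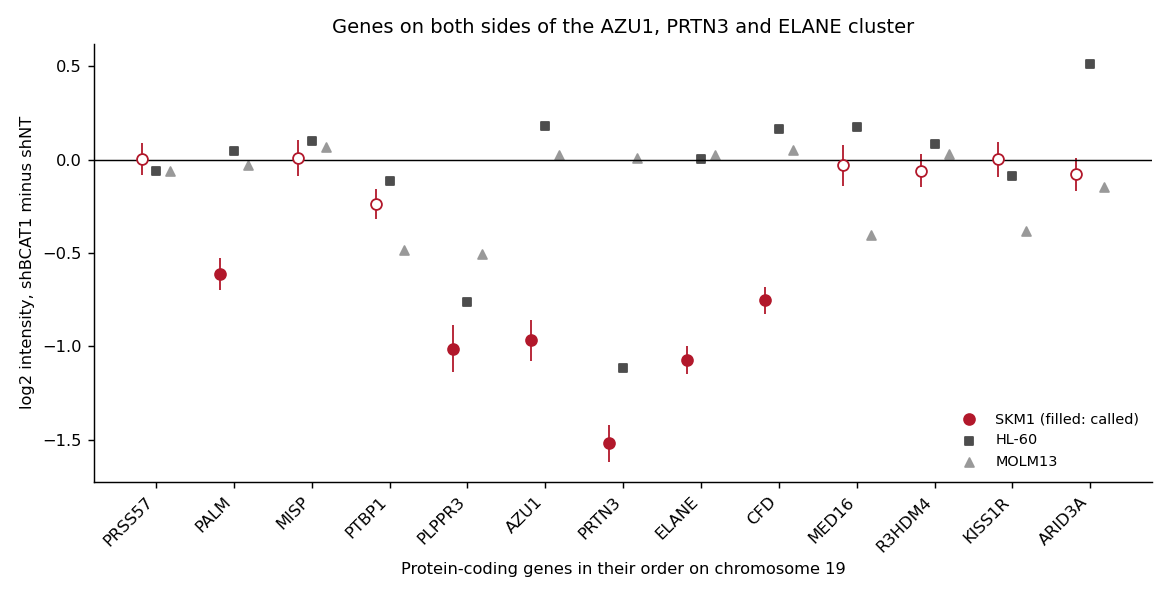
Log2 intensity with shBCAT1 minus shNT for 13 protein-coding genes in their order on chromosome 19 (x axis), in SKM1 (red circles with the SE, filled where the adjusted p is under 0.05), HL-60 (squares) and MOLM13 (triangles). In SKM1 the 5 genes from PLPPR3 to CFD lay between -1.52 and -0.75, the 4 genes to their right lay near 0, and PALM to their left was also lower.

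Upstream sequence was available for AZU1 and PRTN3 and is shown because granule protease genes are classic targets of the C/EBP factors. Each line gives the 250 bases before the gene's start on its own strand, 5′ to 3′, from RefSeq (GRCh38.p14), for AZU1 at chr19:827587-827836 and for PRTN3 at chr19:840749-840998, both on the plus strand, with matches on either strand to the C/EBP half-site pattern TTGCNNAA in capitals.
AZU1: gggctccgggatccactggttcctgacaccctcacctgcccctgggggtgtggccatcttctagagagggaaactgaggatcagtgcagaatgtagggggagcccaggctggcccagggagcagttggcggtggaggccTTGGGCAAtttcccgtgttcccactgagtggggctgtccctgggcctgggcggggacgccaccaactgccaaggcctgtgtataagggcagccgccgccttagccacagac
PRTN3: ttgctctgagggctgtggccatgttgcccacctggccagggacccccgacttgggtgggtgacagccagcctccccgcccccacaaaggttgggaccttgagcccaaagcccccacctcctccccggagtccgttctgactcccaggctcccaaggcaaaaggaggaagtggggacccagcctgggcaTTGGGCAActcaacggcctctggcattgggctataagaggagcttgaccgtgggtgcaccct
Each window held 1 match, and 9.05% of all 35116 windows of this length held at least 1. By gene, a match was held by 9.36% of the 812 fallen genes with a window, 11.7% of the 597 risen ones and 9.42% of the 11897 tested ones. A match describes the letters and does not show binding. CEBPA, which encodes the C/EBP factor that drives granulocyte formation, averaged 3218 ± 330.2 with shBCAT1 and 4082 ± 408 with shNT (SD, n = 3 each; log2 difference -0.34, adjusted p = 0.0756) and was not called in the pooled fit, though the SKM1 arrays alone gave an adjusted p of 0.00756.

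PRG2, the major basic protein that fills the core of eosinophil granules, showed the largest fall after BCAT1 itself. It read 231, 192 and 219 with shBCAT1, against 1218, 1139 and 1156 with shNT (log2 difference -2.45, SE 0.08, adjusted p = 7.16e-16), or 5.48-fold lower. The eosinophil ribonuclease RNASE2 read 1144, 1129 and 1121 with shBCAT1, against 2009, 1806 and 1778 with shNT (log2 difference -0.72, SE 0.08, adjusted p = 6.63e-07). In both genes the groups were well apart, but other eosinophil genes did not take part: EPX averaged 87.9 with shBCAT1 and 90.0 with shNT and CLC 129 with shBCAT1 and 136 with shNT, near the dim end of the array. Of 11 tested eosinophil genes 2 fell (18.2%, against 6.49% of all genes) and 1 rose (9.09%, against 4.66%). The rise was that of the helix-loop-helix inhibitor ID2 (0.50), whose call was lost without shBCAT1 replicate 1 or shNT replicates 2 or 3 (adjusted p up to 0.132). PRG3, the paralogue next to PRG2 on chromosome 11, averaged 78.8 with shBCAT1 and 79.4 with shNT, while SLC43A3, a purine transporter gene on the other side, fell (-0.71, averaging 861 with shBCAT1 and 1410.2 with shNT). SLC43A3 had log2 differences of -0.04 in HL-60 and -1.33 in MOLM13. PRG2 averaged 13864 with shBCAT1 and 13713 with shNT in HL-60 and 13718 and 13486 in MOLM13, near the top of the scale, and its log2 differences were 0.02 and 0.02. A fall there may be compressed, so the size of the difference between lines is uncertain. RNASE2 was bright in every line and went the other way elsewhere, with log2 differences of 0.53 in HL-60 and 0.26 in MOLM13. Its change in SKM1 differed from their mean by -1.11 (SE 0.10, adjusted p = 6.98e-08). None of the 10 tested mast cell and basophil genes passed the test.

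Some lineage factors and progenitor genes fell, and most did not pass the test. IRF8, which directs monocyte and dendritic cell formation, read 1404, 1429 and 1563 with shBCAT1, against 3827, 3802 and 3648 with shNT (log2 difference -1.36, SE 0.09, adjusted p = 3.05e-10). CSF1R, the receptor for the macrophage growth factor, read 419, 439.6 and 442 with shBCAT1, against 881, 994 and 966 with shNT (log2 difference -1.13, SE 0.08, adjusted p = 4.02e-10). The shBCAT1 arrays kept 38.9% of the shNT level for IRF8 and 45.8% for CSF1R, with no overlap. CCR2, the receptor that brings monocytes out of the marrow, averaged 120.1 with shBCAT1 and 216 with shNT (-0.85), a second probe gave -0.73, and 2 dimmer ones moved less. For these genes the change in SKM1 differed from either other line. The difference from the mean of both was -1.18 (SE 0.11, adjusted p = 3.23e-07) for IRF8, -1.55 (SE 0.10, adjusted p = 3.05e-10) for CSF1R and -0.92 (SE 0.12, adjusted p = 2.07e-05) for CCR2. CSF1R was higher with shBCAT1 in HL-60 (0.39) and MOLM13 (0.45). Of 26 tested lineage factors 5 fell and 2 rose (19.2% lower against 6.49% of all genes and 7.69% higher against 4.66%). GFI1, a repressor that favours granulocytes, averaged 819 with shBCAT1 and 1142 with shNT (-0.48), and the immediate early factor EGR1, which promotes monocytic fate, averaged 592 with shBCAT1 and 277 with shNT (1.10, adjusted p = 0.00884). The other falls were those of NFE2 (-0.39), ETS2 (-0.31) and CEBPD (-0.28), and KLF6 rose (0.41). The EGR1 call was lost with trended robust variances (adjusted p = 0.0784). With 1 array left out, the list kept between 3 and 4 falls, a move of over 1.5 times from the 5 above without shBCAT1 replicates 1 or 2 or shNT replicate 2, and between 1 and 2 rises, a move of over 1.5 times from the 2 above without shBCAT1 replicates 1, 2 or 3 or shNT replicates 1 or 2. SPI1, the master factor of myeloid cells, had a log2 difference of -0.09 (adjusted p = 0.756).

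MYB, a proto-oncogenic factor that keeps progenitors dividing, read 1707, 1762 and 1992 with shBCAT1, against 3328, 3591 and 3822 with shNT (log2 difference -0.98, SE 0.12, adjusted p = 2.62e-06). BCL11A, a zinc finger repressor best known for silencing fetal globin, read 288, 256 and 274 with shBCAT1, against 994, 928 and 895 with shNT (log2 difference -1.78, SE 0.08, adjusted p = 8.09e-14). A second BCL11A probe gave a log2 difference of -1.75, and a further, dim probe -0.32. CDK6, the D-cyclin kinase that is high in many leukaemias, read 247, 244 and 288 with shBCAT1, against 716, 749 and 811 with shNT (log2 difference -1.55, SE 0.12, adjusted p = 3.72e-09). Each of these groups was well separated, and together with LYL1 (-0.37), FLT3 (-0.39) and ZBTB16 (-0.97) they made 6 falls among 23 tested progenitor genes (26.1% against 6.49% of all genes), with a list median of -0.07. The other direction was taken by 2 genes (8.7%, against 4.66% of all genes). TRIB2, a pseudokinase that promotes degradation of C/EBP alpha, averaged 488 with shBCAT1 and 259 with shNT (0.92), and MECOM rose by 0.27 near background. The LYL1 call was lost without shNT replicate 3 (adjusted p up to 0.0526) and the MECOM call without shBCAT1 replicates 2 or 3 or shNT replicates 1 or 2 (adjusted p up to 0.154). The MECOM call was also lost with the mean of all probes of the gene (adjusted p = 0.18). MYB and TRIB2 differed from either other line, and from the mean of both by -0.76 (SE 0.15, adjusted p = 0.00173) and 0.70 (SE 0.10, adjusted p = 5.41e-05). CDK6 fell in all 3 lines, with log2 differences of -1.70 in HL-60 and -0.83 in MOLM13. Among receptors for growth factors, TGFBR2 rose (0.82, averaging 1266 with shBCAT1 and 716 with shNT) and the chemokine receptor CXCR4 fell (-0.53, averaging 344 with shBCAT1 and 497 with shNT). CSF2RA, CSF3R and IL3RA had log2 differences of -0.14, -0.17 and -0.19.

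The largest rise was that of ALOX5AP. The gene encodes FLAP, the membrane protein that hands arachidonic acid to 5-lipoxygenase, and it read 1891, 1879 and 1561 with shBCAT1, against 372, 399 and 399 with shNT (log2 difference 2.18, SE 0.09, adjusted p = 4.12e-14), or 4.54-fold higher. Annexin A1 (ANXA1), a phospholipid-binding protein that restrains neutrophil recruitment, read 1991, 2076 and 1923 with shBCAT1, against 615, 705 and 715 with shNT (log2 difference 1.56, SE 0.11, adjusted p = 3.08e-10). Both were well separated, and the receptors through which annexin A1 and bacterial peptides act rose with them: FPR2 averaged 262 with shBCAT1 and 151 with shNT (0.80) and FPR1 176 with shBCAT1 and 126 with shNT (0.48). The cyclooxygenases PTGS1 (0.57) and PTGS2 (0.56) rose to averages of 391 and 172 with shBCAT1, against 263 and 117 with shNT. A second, dim probe of each gave a smaller difference, of 0.040 for PTGS1 and 0.085 for PTGS2. Other genes of leukotriene synthesis did not pass: LTA4H averaged 1604 with shBCAT1 and 1628 with shNT (-0.02) and LTC4S, near background, had 0.06, and ALOX5, the 5-lipoxygenase itself, was too dim to be tested. Of 24 tested genes of this list 6 rose (25%, against 4.66% of all genes) and 1 fell (4.17%, against 6.49%). The fall was that of the prostaglandin receptor PTGER4 (-0.75). The list median was 0.14. ALOX5AP rose in HL-60 (0.69) and had 0.19 in MOLM13, and the change in SKM1 exceeded both, by 1.74 (SE 0.11, adjusted p = 3.12e-10) over their mean. ANXA1 rose in all 3 lines and by more in SKM1, by 0.67 (SE 0.13, adjusted p = 0.00206). FPR2 and PTGS2 also differed, by 0.77 (SE 0.10, adjusted p = 1.28e-05) and 0.48 (SE 0.10, adjusted p = 0.00399).

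The 250 bases before the start of ALOX5AP, the gene with the largest rise, are shown with matches on either strand to the ETS family pattern AGGAAGT, which SPI1 and its relatives bind, in capitals (GRCh38.p14, chr13:30713235-30713484, plus strand, 5′ to 3′, from RefSeq).
ALOX5AP: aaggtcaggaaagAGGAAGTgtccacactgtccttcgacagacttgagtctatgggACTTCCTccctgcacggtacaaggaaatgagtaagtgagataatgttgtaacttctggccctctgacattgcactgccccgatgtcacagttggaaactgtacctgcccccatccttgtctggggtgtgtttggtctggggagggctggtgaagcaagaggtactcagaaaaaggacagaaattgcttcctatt
The window held 2 matches. At least 1 match was found in 7.01% of all 35116 windows. By gene, 16.8% of the 597 risen genes with a window held a match, 7.14% of the 812 fallen ones, and 9.27% of the 11897 tested ones. These shares are a description of letters in 1 window length and were not tested.

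Some receptors, adaptors and signalling partners rose. The Src family kinase FGR read 435, 454 and 344 with shBCAT1, against 126, 133 and 133 with shNT (log2 difference 1.65, SE 0.12, adjusted p = 8.41e-10), with a second probe giving 1.27 and a further, dim probe 0.17. FCMR, the receptor for the Fc part of IgM, read 476, 466 and 476 with shBCAT1, against 191, 176 and 159.6 with shNT (log2 difference 1.43, SE 0.08, adjusted p = 1.91e-11). TYROBP, the adaptor that carries signals from TREM receptors, read 655, 633 and 599.5 with shBCAT1, against 331, 300.1 and 304 with shNT (log2 difference 1.01, SE 0.13, adjusted p = 8.41e-06). FCER1G, the common Fc receptor gamma chain, read 4462, 4324 and 4334 with shBCAT1, against 2852, 2659 and 2762 with shNT (log2 difference 0.67, SE 0.13, adjusted p = 0.000773). All 3 shBCAT1 arrays were above all shNT arrays in each case, and TREM1, a partner of TYROBP that amplifies inflammation, averaged 156 with shBCAT1 and 100.4 with shNT (0.64). Of 26 tested genes of this list 8 rose and 1 fell (FYN, -0.52), which is 30.8% higher against 4.66% of all genes and 3.85% lower against 6.49%, with a median of -0.01. With 1 array left out there were between 5 and 7 rises, a move of over 1.5 times from the 8 above without shBCAT1 replicate 2 or shNT replicate 2, and the FYN call was lost without shBCAT1 replicate 3 or shNT replicate 2 (adjusted p up to 0.0683). The other rises were those of PILRA (0.40), FCGR1A (0.37) and PTPN6 (0.34). The FCGR1A call was lost without any 1 of the 6 arrays (adjusted p up to 0.239). The PILRA call was lost without shBCAT1 replicates 1 or 2 or shNT replicate 2 (adjusted p up to 0.16). The PTPN6 call was lost without shBCAT1 replicate 2 or shNT replicates 2 or 3 (adjusted p up to 0.135), and with the mean of its probes (adjusted p = 0.226). FCMR and TREM1 moved in SKM1 while their log2 differences in HL-60 were -0.08 and -0.04 and in MOLM13 0.06 and 0.01. The change in SKM1 differed from the mean of the others by 1.44 (SE 0.10, adjusted p = 1.40e-09) and 0.65 (SE 0.15, adjusted p = 0.00998). FCMR averaged 85.1 with shNT in HL-60 and 138 in MOLM13. FGR had 2.44 in HL-60 and 0.90 in MOLM13.

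The costimulatory ligand CD86, which licenses T cell responses, read 1142, 1231 and 1125 with shBCAT1, against 451, 501 and 468 with shNT (log2 difference 1.30, SE 0.11, adjusted p = 4.39e-09). A second probe rose by 0.70 and a further, dim probe by 0.29. Of 18 tested genes for costimulation and MHC class II 4 rose (22.2%, against 4.66% of all genes) and none fell. The others were the adhesion ligand CD58, the peptide loader HLA-DMA and the cathepsin CTSS, with log2 differences of 0.42, 0.40 and 0.30. Calls were lost of CD58 without shBCAT1 replicates 1 or 3 or shNT replicates 1, 2 or 3 (adjusted p up to 0.0854), HLA-DMA without shBCAT1 replicate 1 (adjusted p up to 0.0595) and CTSS without shBCAT1 replicates 1 or 2 or shNT replicates 1, 2 or 3 (adjusted p up to 0.28), and with 1 array left out there were between 2 and 3 rises, a move of over 1.5 times from the 4 above without shBCAT1 replicate 1 or shNT replicates 1, 2 or 3. ITGAM, the alpha chain of the complement receptor CR3, read 631, 697 and 713 with shBCAT1, against 329.9, 354 and 353 with shNT (log2 difference 0.98, SE 0.09, adjusted p = 6.27e-08), and its relative ITGAX averaged 362 with shBCAT1 and 209.7 with shNT (0.78). ITGAL, the alpha chain of LFA-1, went down (-0.75, averaging 723 with shBCAT1 and 1217 with shNT), while their shared partner ITGB2 had 0.12 at 10952 with shBCAT1 and 10096 with shNT. Of 16 integrin and adhesion genes 5 rose and 3 fell (31.2% higher against 4.66% of all genes and 18.8% lower against 6.49%). The change of ITGAL differed from either other line, and from the mean of both by -0.84 (SE 0.12, adjusted p = 8.73e-05). NCF1, the p47 subunit of the phagocyte NADPH oxidase, read 5704, 5564 and 5419 with shBCAT1, against 2778, 3287 and 2845 with shNT (log2 difference 0.91, SE 0.15, adjusted p = 0.00011), and the calcium-binding protein S100A11 read 1283, 1242 and 1215 with shBCAT1, against 676, 708 and 669 with shNT (log2 difference 0.87, SE 0.07, adjusted p = 1.28e-08). NCF1 has near-identical pseudogenes whose transcripts its probe may also bind. The catalytic subunit CYBB averaged 459 with shBCAT1 and 339 with shNT (0.44). With S100A4 (0.36) and NCF4 (0.38) these made 5 rises (26.3%, against 4.66% of all genes) and no fall among 19 tested genes, with a median of 0.18. The calls were lost of S100A4 without any 1 of the 6 arrays (adjusted p up to 0.165) and NCF4 without shBCAT1 replicates 1, 2 or 3 or shNT replicates 2 or 3 (adjusted p up to 0.136). The specific granule proteins LTF, LCN2 and CAMP lay near the median of all probes, between 84.2 and 109.5 with shBCAT1 and between 88.3 and 108 with shNT.

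Of 24 tested monocyte and macrophage genes 5 rose and 5 fell (20.8% higher against 4.66% of all genes and 20.8% lower against 6.49%), with a median of 0.05. CX3CR1, the fractalkine receptor, averaged 501 with shBCAT1 and 317 with shNT (0.67), the scavenger receptor CD36 284 with shBCAT1 and 208 with shNT (0.45) and the lysosomal protease CTSD 543 with shBCAT1 and 365 with shNT (0.57), and these rose while CSF1R, IRF8 and CCR2 fell. The lipopolysaccharide coreceptor CD14 was near background at 94.9 with shBCAT1 and 82.5 with shNT. With 1 array left out there were between 3 and 4 rises, a move of over 1.5 times from the 5 above without shBCAT1 replicates 1 or 2 or shNT replicates 1, 2 or 3.

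Among cytokines, chemokines and genes of NF-kB feedback, 8 of 30 tested were higher with shBCAT1. The neutrophil attractant CXCL8 read 2765, 2929 and 2610.4 with shBCAT1, against 1023, 1276 and 1235 with shNT (log2 difference 1.24, SE 0.22, adjusted p = 0.000363). The cytokine TNF read 798, 978 and 789 with shBCAT1, against 396, 439 and 467 with shNT (log2 difference 0.97, SE 0.13, adjusted p = 1.17e-05) and IL1B read 257, 293 and 235 with shBCAT1, against 124, 132 and 127 with shNT (log2 difference 1.03, SE 0.09, adjusted p = 2.47e-08). CCL20, CCL5 and CCL3, chemokines for lymphocytes and monocytes, rose by 0.91, 0.70 and 0.63, CCL3 from a level near background. CCL3 has close paralogues that its probe may share. The rises made 26.7% of the list, against 4.66% of all genes, and no member fell. They included NFKBIE (0.29) and IL1RN (0.27). The NFKBIE call was lost without shBCAT1 replicates 1 or 2 or shNT replicate 1 (adjusted p up to 0.117). The IL1RN call was lost without any 1 of the 6 arrays (adjusted p up to 0.144). The chemokine changes differed from the mean of the other lines, by 0.79 (SE 0.21, adjusted p = 0.0219) for CCL20 and 0.69 (SE 0.13, adjusted p = 0.00132) for CCL5. They fell in MOLM13 (-0.56 and -0.54) and rose in HL-60 (0.81 and 0.56). Interferon-stimulated genes gave 6 rises and 1 fall among 33 tested (18.2% higher against 4.66% of all genes and 3.03% lower against 6.49%): MX2 (0.53), IFI35 (0.52) and IFI6 (0.45) were among the rises and rose in all 3 lines. HERC5, the ligase for ISG15, fell (-0.77, averaging 719.5 with shBCAT1 and 1226 with shNT), and ISG15, MX1 and IFIT1 had -0.02, 0.08 and -0.02. IFIT1 lay at the level of dim probes, at 87.9 with shBCAT1 and 89.5 with shNT. Osteopontin (SPP1), a secreted phosphoprotein, read 4026, 4274 and 3959 with shBCAT1, against 1799, 1953 and 1773 with shNT (log2 difference 1.15, SE 0.08, adjusted p = 3.05e-10), with 0.23 in HL-60 and -0.28 in MOLM13. The metalloproteinase inhibitor TIMP1 read 3589, 3509 and 3407 with shBCAT1, against 1465, 1469.7 and 1386 with shNT (log2 difference 1.28, SE 0.10, adjusted p = 1.64e-09). Of 21 tested proteases and inhibitors 5 rose and 4 fell (23.8% higher against 4.66% of all genes and 19% lower against 6.49%), and SERPINA1 rose (0.79) while SERPINB8, PLAU and SLPI fell (-0.94, -0.74 and -0.64). Each of these last 4 differed from either other line, and from the mean of both by 0.60, -0.96, -0.91 and -0.78.

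**Figure D4:**
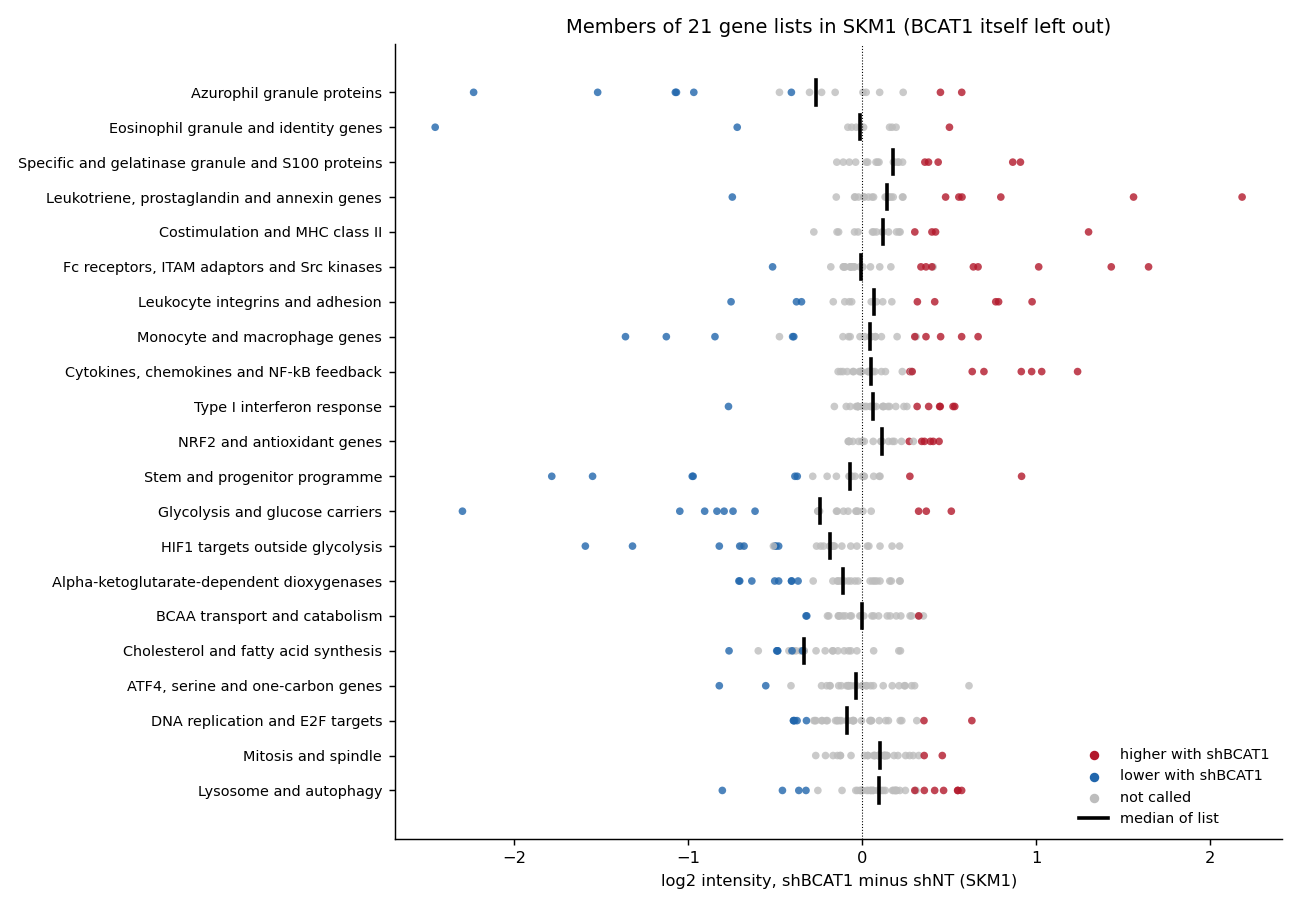
Log2 intensity with shBCAT1 minus shNT in SKM1 (x axis) for the tested members of 21 gene lists (rows), with red for members higher and blue for members lower at an adjusted p under 0.05, grey for the others and a black bar at the median, and BCAT1 left out. The azurophil list holds 6 blue points with MPO farthest left at -2.23, and the leukotriene list 6 red points with ALOX5AP farthest right at 2.18.

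Some genes of glucose use and of the hypoxia response fell. HIF1 turns on glucose carriers, glycolytic enzymes and mitophagy genes when oxygen, iron or alpha-ketoglutarate limits the prolyl hydroxylases. PFKFB4, which makes the activator of phosphofructokinase, read 216, 218 and 207 with shBCAT1, against 780.3, 1234 and 1203 with shNT (log2 difference -2.30, SE 0.25, adjusted p = 3.59e-07). The aldolase ALDOC read 1694, 1734 and 1541 with shBCAT1, against 3517, 3434 and 3314 with shNT (log2 difference -1.05, SE 0.10, adjusted p = 6.67e-08), and the lactate dehydrogenase LDHA read 7043, 7808 and 7813 with shBCAT1, against 13998, 14209 and 14195 with shNT (log2 difference -0.91, SE 0.10, adjusted p = 6.92e-07). For these the groups did not overlap, and a second bright probe of LDHA gave a larger fall of -1.14. Hexokinase 2 (HK2), glucose phosphate isomerase (GPI), enolase 2 (ENO2) and the carrier SLC2A1 fell, with log2 differences of -0.83, -0.79, -0.74 and -0.62. A weaker HK2 probe, at 191.8 with shBCAT1 and 228.7 with shNT, gave -0.25. Of 25 tested genes 7 fell (28%, against 6.49% of all genes) and 3 rose (12%, against 4.66%). The rises were those of HK3 (0.32), PFKFB3 (0.37) and PFKFB2 (0.51). The PFKFB2 call was lost with the mean of its 3 probes (adjusted p = 0.185), and the HK3 call without shBCAT1 replicates 2 or 3 or shNT replicate 2 (adjusted p up to 0.102). The list median was -0.24. The bulk enzymes of the pathway were not called: GAPDH, PGK1, PKM and ENO1 had log2 differences of -0.08, -0.25, -0.25 and -0.03.

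Outside glycolysis, 8 of 27 tested HIF1 targets fell (29.6%, against 6.49% of all genes) and none rose, with a median of -0.19. The mitophagy receptor BNIP3 read 1041, 998 and 937 with shBCAT1, against 1898, 2843 and 2806 with shNT (log2 difference -1.32, SE 0.19, adjusted p = 1.97e-05). TMEM45A, a membrane protein induced by hypoxia, read 155, 173 and 159 with shBCAT1, against 429, 532 and 513 with shNT (log2 difference -1.59, SE 0.10, adjusted p = 3.92e-11). The lipoprotein receptor VLDLR, the collagen prolyl hydroxylase P4HA1, ANKRD37, the histone demethylase KDM3A, the BNIP3 relative BNIP3L and the HIF prolyl hydroxylase EGLN1 fell, with log2 differences of -0.82, -0.70, -0.68, -0.50, -0.50 and -0.48. HIF1A itself averaged 86.0 with shBCAT1 and 96.1 with shNT (-0.16, adjusted p = 0.257), near the median of all probe values, where a change may not be measurable. VEGFA, weakly expressed, had -0.19. The calls were lost of ANKRD37 without shBCAT1 replicates 2 or 3 or shNT replicates 2 or 3 (adjusted p up to 0.085) and KDM3A without shBCAT1 replicate 1 or shNT replicate 3 (adjusted p up to 0.0687). In the control group replicate 1 stood lower than replicates 2 and 3 for these genes: it was the lowest shNT array in 14 of the 15 glycolysis and HIF1 genes that fell, and in 37 of all 52 tested ones (71.2%), against 38.1% of all tested genes. Without it the log2 difference was -2.51 for PFKFB4 and -1.51 for BNIP3, and the lists held 7 and 12 falls.

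**Figure D5:**
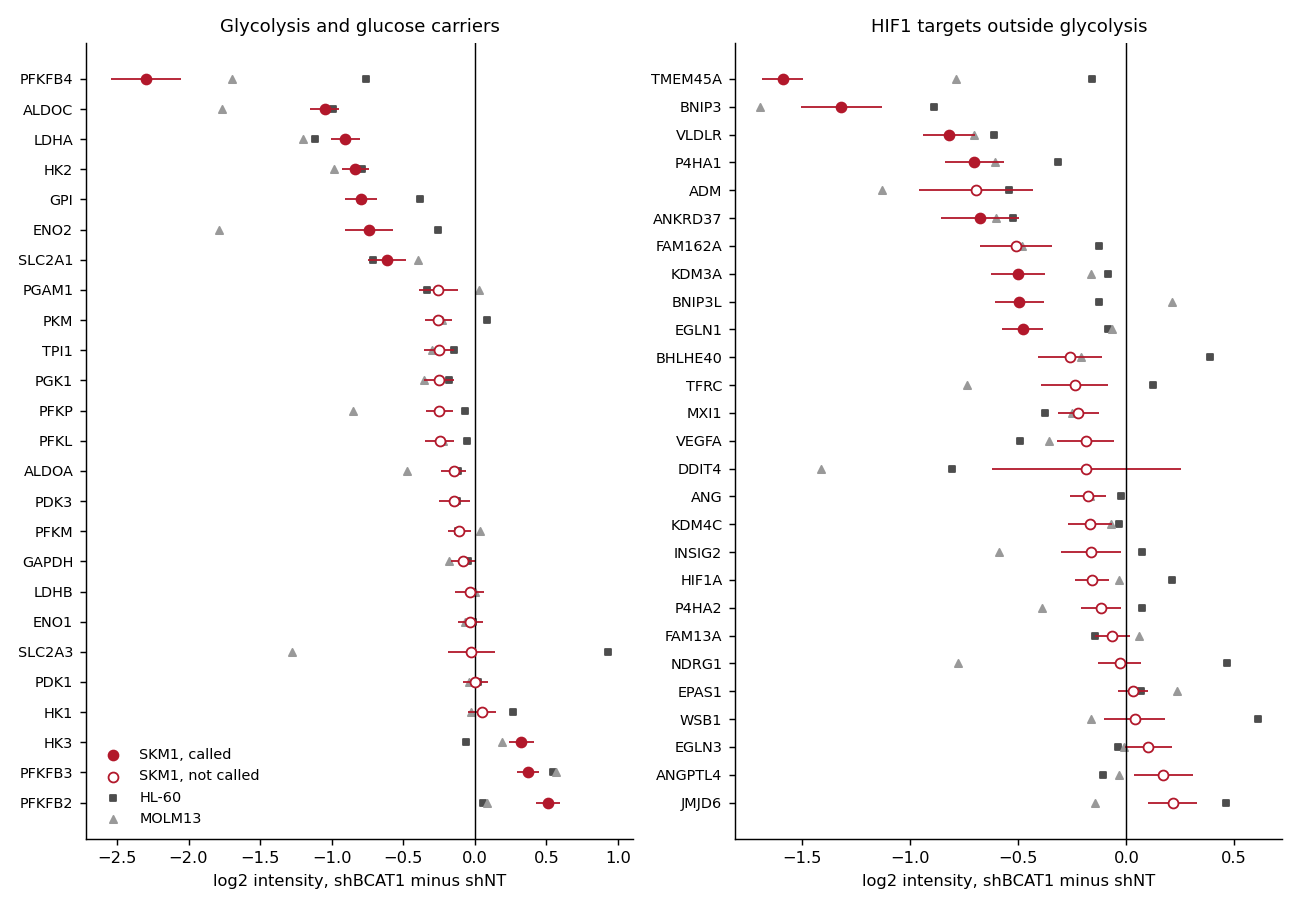
Log2 intensity with shBCAT1 minus shNT (x axis) for the tested genes of glycolysis (left) and HIF1 targets outside it (right), sorted by the value in SKM1, with SKM1 as red circles with the SE (filled where the adjusted p is under 0.05), HL-60 as squares and MOLM13 as triangles. In SKM1 7 glycolysis genes from PFKFB4 (-2.30) to SLC2A1 (-0.62) and 8 HIF1 targets from TMEM45A (-1.59) to EGLN1 (-0.48) were lower.

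ACGTG is 1 form of the core that HIF1 binds, and other forms were not searched. The 250 bases before the start of the fallen genes ALDOC, LDHA and BNIP3 are shown with matches to ACGTG on either strand in capitals (GRCh38.p14, from RefSeq, 5′ to 3′ on the gene's strand). ALDOC is at chr17:28576896-28577145 and BNIP3 at chr10:131981924-131982173, both on the minus strand, and LDHA at chr11:18394313-18394562 on the plus strand. In CACGTG a match on each strand overlaps, and both are counted.
ALDOC: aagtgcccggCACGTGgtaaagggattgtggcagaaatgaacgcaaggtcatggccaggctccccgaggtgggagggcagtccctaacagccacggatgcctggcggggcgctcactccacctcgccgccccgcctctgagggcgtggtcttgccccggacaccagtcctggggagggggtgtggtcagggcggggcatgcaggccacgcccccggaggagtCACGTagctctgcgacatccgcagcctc
LDHA: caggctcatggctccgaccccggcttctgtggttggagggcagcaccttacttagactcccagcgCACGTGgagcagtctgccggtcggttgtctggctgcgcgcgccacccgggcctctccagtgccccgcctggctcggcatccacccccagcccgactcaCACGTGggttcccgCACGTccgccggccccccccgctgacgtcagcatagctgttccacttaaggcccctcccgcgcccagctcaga
BNIP3: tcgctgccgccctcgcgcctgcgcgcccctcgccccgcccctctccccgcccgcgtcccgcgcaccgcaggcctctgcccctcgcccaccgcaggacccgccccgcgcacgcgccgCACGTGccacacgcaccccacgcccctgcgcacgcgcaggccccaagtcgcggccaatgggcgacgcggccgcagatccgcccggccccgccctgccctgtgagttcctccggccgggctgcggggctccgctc
These windows held 3, 5 and 2 matches, and a second LDHA start had none. PFKFB4, with the largest fall of the list, had no ACGTG in its window, though its letters include GCGTG. At least 1 match was found in 18.5% of all 35116 windows. By gene, a match was found in 32% of the 812 fallen genes with a window, 29.5% of the 597 risen ones and 27.1% of the 11897 tested ones. It was found in 5 of the 7 fallen glycolysis genes and in 14 of the 23 tested ones with a window. Among HIF1 targets outside glycolysis it was found in 4 of 7 fallen genes and in 14 of 23 tested ones.

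PFKFB4, ALDOC, LDHA and BNIP3 also fell in both other lines. Their log2 differences were -0.76, -0.99, -1.11 and -0.89 in HL-60 and -1.70, -1.77, -1.20 and -1.70 in MOLM13. The change of PFKFB4 in SKM1 was larger than the mean of the others, by -1.07 (SE 0.30, adjusted p = 0.0324), but did not pass against MOLM13 alone (adjusted p = 0.348). The change of TMEM45A in SKM1 differed from the mean of the others by -1.12 (SE 0.12, adjusted p = 1.25e-06), but in HL-60 it lay at the level of dim probes, where a fall could not be measured.

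Few genes around the BCAT1 reaction passed the test. BCAT2, the mitochondrial isoenzyme, averaged 745 with shBCAT1 and 752 with shNT (-0.01, adjusted p = 0.967). Besides BCAT1, 2 of the 27 tested genes of branched-chain transport and breakdown fell, the dehydrogenase subunit BCKDHA (-0.32) and the hydratase ECHS1 (-0.32), and 1 rose, HIBCH (0.32). All 3 calls were lost on leaving out an array: BCKDHA without shNT replicate 2 (adjusted p up to 0.0664), ECHS1 without shBCAT1 replicate 2 or shNT replicate 3 (adjusted p up to 0.0573) and HIBCH without shBCAT1 replicates 1 or 2 or shNT replicates 1, 2 or 3 (adjusted p up to 0.163). With BCAT1 counted, 11.1% of this list fell, against 6.49% of all genes, and 3.7% rose, against 4.66%. The leucine carrier SLC7A5 read 3527, 4204 and 4328 with shBCAT1, against 3246, 3082 and 3268 with shNT (0.32, adjusted p = 0.0676). It fell in HL-60 (-0.55) and MOLM13 (-0.96), and the change in SKM1 differed from each of these. The difference from their mean was 1.08 (SE 0.14, adjusted p = 2.00e-05). The rise in SKM1 passed the test in the fit of the SKM1 arrays alone (adjusted p = 0.00592). Of 26 tested genes of glutamate and alpha-ketoglutarate 3 fell and 2 rose (11.5% lower against 6.49% of all genes and 7.69% higher against 4.66%). ALDH18A1, the first enzyme of proline synthesis from glutamate, averaged 722 with shBCAT1 and 1013 with shNT (-0.50), and IDH3G, a subunit of the mitochondrial isocitrate dehydrogenase, 506 with shBCAT1 and 671 with shNT (-0.41). The third fall was that of PYCR1 (-0.35), lost without shBCAT1 replicates 1 or 2 or shNT replicates 1 or 2 (adjusted p up to 0.145). The PYCR1 call was also lost with the mean of its probes (adjusted p = 0.359). The glutamate dehydrogenase GLUD1 had -0.06. The rises were those of GOT1 (0.31) and GCLC (0.27), and both calls were lost without any 1 of the 6 arrays (adjusted p up to 0.178). IDH3G differed from either other line, and from the mean of both by -0.51 (SE 0.10, adjusted p = 0.0015).

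Among 28 tested dioxygenases that use alpha-ketoglutarate 8 fell (28.6%, against 6.49% of all genes) and none rose, with a median of -0.11. The set is led by PLOD2, a lysyl hydroxylase of collagen (-0.71, averaging 1043 with shBCAT1 and 1716 with shNT), P4HA1 (-0.70) and the histone H3 demethylase KDM5B (-0.63, averaging 998 with shBCAT1 and 1545 with shNT). The others were KDM3A, EGLN1, KDM2B (-0.41), KDM4B (-0.41) and the RNA demethylase ALKBH5 (-0.37). P4HA1, KDM3A and EGLN1 are also in the HIF1 list. The call of KDM2B was lost with the mean of its 3 probes (adjusted p = 0.0532), that of KDM4B likewise (adjusted p = 0.179), and calls were lost of KDM4B without shBCAT1 replicates 2 or 3 or shNT replicates 2 or 3 (adjusted p up to 0.103) and ALKBH5 without shBCAT1 replicate 1 (adjusted p up to 0.0653). The change of PLOD2 differed from either other line, and from the mean of both by -0.69 (SE 0.15, adjusted p = 0.00633). However, 2 further probes of the gene moved less. PLOD2 also lay at the level of dim probes in both other lines, where a fall could not be measured. The maintenance methylase DNMT1 averaged 3386 with shBCAT1 and 4564 with shNT (-0.43) and DNMT3L, a methylase cofactor of germ cells, 435 with shBCAT1 and 672 with shNT (-0.62). Of 20 DNA methylation and Polycomb genes 3 fell, including the glycosylase TDG (-0.42), and 1 rose, the methylase DNMT3A (0.24), near background at 95.1 with shBCAT1 and 80.4 with shNT (15% lower against 6.49% of all genes and 5% higher against 4.66%). The DNMT3A call was lost without any 1 of the 6 arrays (adjusted p up to 0.159). In the leucine-sensing pathway, MTOR, RPTOR and SESN2 had 0.20, -0.05 and -0.07. Of its 27 tested genes 2 rose (7.41%, against 4.66% of all genes), the GTPase RHEB (0.32) and SESN1. The Ragulator subunit LAMTOR2 fell (-0.50), as the only 1 (3.7%, against 6.49%). The RHEB call was lost without any 1 of the 6 arrays (adjusted p up to 0.107). ATF4 targets and serine synthesis genes gave 2 falls among 30 tested (6.67%, against 6.49% of all genes), of the folate enzyme MTHFD1L (-0.55) and VLDLR, and no rise. In HL-60 there were 1 rise and 17 falls, where 9.98% of all genes were higher and 8.87% lower. In MOLM13 there were 1 rise and 22 falls, where 10.3% of all genes were higher and 10.7% lower. For 11 of the 30 the change in SKM1 was above the mean change of the other lines, as it was for 2.37% of all genes, and for 1 below, as for 4.19%. The asparagine synthetase ASNS had 0.21 in SKM1, -0.42 in HL-60 and -0.71 in MOLM13. Its change in SKM1 differed from the mean of the others by 0.78 (SE 0.16, adjusted p = 0.00346). The rise in SKM1 passed only in the fit of the SKM1 arrays alone among the settings quoted here (adjusted p = 0.0495).

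Proliferation genes moved weakly and in both directions. Beside the fall of CDK6, the G1 cyclin CCND3 averaged 9599 with shBCAT1 and 6713 with shNT (0.52), the inhibitor CDKN2D 438 with shBCAT1 and 275 with shNT (0.67) and the inhibitor CDKN1B 325 with shBCAT1 and 249 with shNT (0.38), all higher. The CDKN1B call was lost with the mean of its probes (adjusted p = 0.0545). Of 20 tested G1 genes 6 rose and 2 fell (30% higher against 4.66% of all genes and 10% lower against 6.49%), and with 1 array left out there were between 3 and 4 rises, a move of over 1.5 times from the 6 above without shBCAT1 replicates 1 or 2 or shNT replicate 3. The second fall, that of CDKN2A (-0.27), was lost without shBCAT1 replicates 1 or 2 or shNT replicates 1, 2 or 3 (adjusted p up to 0.105). DNA replication gave 5 falls and 2 rises among 36 tested genes (13.9% lower against 6.49% of all genes and 5.56% higher against 4.66%). The helicase subunit MCM3 averaged 5403 with shBCAT1 and 7054 with shNT (-0.39) and the ribonucleotide reductase RRM2 465 with shBCAT1 and 300.3 with shNT (0.63). These were the calls that held in every fit with 1 array left out, where the falls numbered between 1 and 3, a move of over 1.5 times from the 5 above without shBCAT1 replicates 1, 2 or 3 or shNT replicates 1, 2 or 3. Mitosis genes gave 2 rises, KIF23 (0.46) and SPC25 (0.36), and no fall among 36 (5.56% higher against 4.66% of all genes). The SPC25 call was lost without shBCAT1 replicates 1 or 2 or shNT replicates 1, 2 or 3 (adjusted p up to 0.184). In MOLM13 30 of the 36 replication and 31 of the 36 mitosis genes fell, against 10.7% of all genes. A change in SKM1 above the mean of the other lines was found for 21 replication and 7 mitosis genes, against 2.37% of all genes. MYC averaged 2334 with shBCAT1 and 3040.3 with shNT (-0.38), a call lost without shBCAT1 replicate 1 or shNT replicates 1 or 2 (adjusted p up to 0.0999). The nucleolar phosphoprotein NOLC1 read 215, 207 and 201 with shBCAT1, against 521, 432 and 441 with shNT (log2 difference -1.16, SE 0.10, adjusted p = 1.79e-08), and 7 of 35 MYC and ribosome biogenesis genes fell (20%, against 6.49% of all genes) with none rising. With 1 array left out there were between 3 and 6 falls, a move of over 1.5 times from the 7 above without shBCAT1 replicate 1 or shNT replicates 2 or 3. Cytosolic ribosomal proteins showed 1 rise (2.78%, against 4.66% of all genes) and no fall among 36. The rise was that of RPL37 (0.44), a call lost without shBCAT1 replicates 1 or 3 or shNT replicates 1 or 3 (adjusted p up to 0.13).

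The survival factor BCL2 read 375, 381 and 395 with shBCAT1, against 932, 997 and 995 with shNT (log2 difference -1.34, SE 0.12, adjusted p = 3.62e-08), a second probe also fell, and 2 dim probes moved less. MCL1, another survival member, went up (0.47, averaging 1129 with shBCAT1 and 812 with shNT), and BCL2L1 had 0.01. The BCL2 change differed from either other line, though BCL2 also fell there (-0.44 and -0.62). The difference from the mean of both lines was -0.81 (SE 0.15, adjusted p = 0.0015). The death receptor TNFRSF10B, a p53 target, averaged 974 with shBCAT1 and 466 with shNT (1.07), but 2 further probes moved less. Of 24 p53 targets 3 rose and 2 fell (12.5% higher against 4.66% of all genes and 8.33% lower against 6.49%). The cell cycle inhibitor CDKN1A and SESN1 rose (0.39 and 0.27), the repair protein DDB2 and the nuclease AEN fell (-0.30 and -0.32), and these calls were lost of CDKN1A without shBCAT1 replicates 1 or 2 or shNT replicates 1 or 3 (adjusted p up to 0.224), SESN1 without shBCAT1 replicate 3 or shNT replicates 1 or 2 (adjusted p up to 0.158), DDB2 without any 1 of the 6 arrays (adjusted p up to 0.107) and AEN without shBCAT1 replicates 2 or 3 or shNT replicates 1 or 2 (adjusted p up to 0.156). MDM2 and BBC3 had 0.01 and 0.02, and MDM2 lay at the level of dim probes, at 86.8 with shBCAT1 and 86.3 with shNT. Cholesterol and fatty acid synthesis gave 6 falls (24%, against 6.49% of all genes) and no rise among 25 tested genes, with a median of -0.33. The carboxylase ACACA averaged 656 with shBCAT1 and 867 with shNT (-0.40), the desaturase FADS2 237 with shBCAT1 and 333 with shNT (-0.49) and the regulator SREBF1 231 with shBCAT1 and 323 with shNT (-0.49). With 1 array left out there were between 2 and 6 falls, a move of over 1.5 times from the 6 above without shBCAT1 replicate 1 or shNT replicates 2 or 3. The SREBF1 call was lost without shBCAT1 replicate 1 (adjusted p up to 0.0571). In the endoplasmic reticulum the lectin chaperone CANX read 666, 660.2 and 613 with shBCAT1, against 1620.3, 1508 and 1572 with shNT (log2 difference -1.28, SE 0.07, adjusted p = 1.91e-11), and its partners CALR and P4HB fell (-0.49 and -0.65), while the stress sensor target HSPA5 had -0.07. HSP90AB1, the constitutive cytosolic HSP90, read 3519, 3917 and 3859 with shBCAT1, against 8827, 8520.0 and 9776 with shNT (log2 difference -1.26, SE 0.10, adjusted p = 4.92e-09), whereas the inducible HSPA1A and HSPA1B rose (0.70 and 0.89), as did their partners DNAJB1 (0.52) and HSPH1 (0.39). HSPA1A and HSPA1B are near-identical and their probes may not tell them apart. Fatty acid oxidation split: HADH, the short-chain dehydrogenase, read 673, 661 and 692 with shBCAT1, against 1568, 1711 and 1694 with shNT (log2 difference -1.29, SE 0.08, adjusted p = 4.47e-11), while the trifunctional subunits HADHB and HADHA rose (0.52 and 0.32). Lysosome and autophagy genes gave 7 rises and 4 falls among 39 (17.9% higher against 4.66% of all genes and 10.3% lower against 6.49%). In HL-60 there were 22 rises and 1 fall, where 9.98% of all genes were higher and 8.87% lower. In MOLM13 there were 26 rises and 2 falls, where 10.3% of all genes were higher and 10.7% lower. The cargo receptor SQSTM1 rose (0.47) and the cholesterol exporter NPC1 fell (-0.80). The change in SKM1 was below the mean of the other lines for 13 of the 39, as for 4.19% of all genes. NRF2 and antioxidant genes gave 6 rises (24%, against 4.66% of all genes) and no fall among 25, led by NQO1 (0.44), the peroxidase GPX1 (0.41) and PGD (0.39). With 1 array left out there were between 3 and 4 rises, a move of over 1.5 times from the 6 above without shBCAT1 replicate 2 or shNT replicates 2 or 3.

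Other large changes belonged to further lists or to none. PADI4, which converts arginine to citrulline in histones, read 3102, 3134 and 3045 with shBCAT1, against 1306, 1247 and 1289.6 with shNT (log2 difference 1.27, SE 0.10, adjusted p = 1.91e-09), and LFNG, a fringe enzyme that modifies Notch, read 729.7, 793 and 647 with shBCAT1, against 327, 264 and 283 with shNT (log2 difference 1.31, SE 0.15, adjusted p = 1.00e-06), with 2 further probes near background that did not follow. NOTCH1 rose (0.77) while NOTCH3 and the ligand JAG2 fell (-0.57 and -0.54). With LFNG these made 2 rises and 2 falls among 21 tested fringe and Notch genes. The shares were 9.52% higher, against 4.66% of all genes, and 9.52% lower, against 6.49%. The vesicle protein synaptophysin (SYP) and the adaptor subunit AP3B2, best known from neurons, both rose. SYP read 235, 211 and 215 with shBCAT1, against 91.3, 87.6 and 102 with shNT (1.23), and AP3B2 read 323, 398 and 342 with shBCAT1, against 150.1, 147 and 160.0 with shNT (1.21). SYP with shNT lay at the median of all probes, so its rise may be understated. The G protein regulators RGS1 and RGS2 rose by 1.12 and 1.07, the kinase SGK1 by 1.07, the antiproliferative BTG3 by 1.09, TMEM121B by 1.12 and PYROXD2 by 1.17. Among the falls, BEND5 read 249.8, 235 and 229 with shBCAT1, against 685, 787 and 757 with shNT (log2 difference -1.64, SE 0.13, adjusted p = 3.67e-09), with 0.09 in HL-60 and -0.62 in MOLM13. NUDT7, a peroxisomal coenzyme A hydrolase, read 337, 251 and 318 with shBCAT1, against 755, 769.7 and 833 with shNT (log2 difference -1.39, SE 0.09, adjusted p = 3.05e-10), with -0.12 and -0.10. The differences from the mean of the other lines were -1.38 and -1.28, and BEND5 lay at the level of dim probes in HL-60. Other large falls were shared by the lines. The log2 differences in SKM1, HL-60 and MOLM13 were -1.61, -1.24 and -0.89 for the splicing protein SNRNP27, -1.61, -1.38 and -1.22 for the mitochondrial topoisomerase TOP1MT, -1.54, -1.32 and -1.03 for the carrier protein SCAMP1, -1.49, -1.15 and -0.62 for the stress granule protein G3BP2, -1.40, -0.70 and -1.24 for the cargo receptor CNIH4, and -1.38, -1.06 and -1.20 for the poly(A) polymerase TENT5C. HSP90AB1 had -1.26, -1.22 and -1.33, and HADH -1.29, -1.45 and -1.14. The same hairpin was used in each line, and matches of its sequence to these transcripts were not analysed here. The fucosyltransferase FUT4, which makes the CD15 epitope of myeloid cells, fell (-1.44), as did the nucleotide receptor P2RY2 (-1.33), each with a dimmer probe that moved less.

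The change in SKM1 was set against the mean change of HL-60 and MOLM13, and 2.37% of genes had a higher and 4.19% a lower change in SKM1 (adjusted p under 0.05). For 268 genes (1.75%) the change also differed from each line on its own in the same direction, with 69 higher and 199 lower. Of the 1704 genes called in SKM1, 443 (26%) were called with the same sign in both other lines. A further 521 (30.6%) were called in neither line with either sign. Among the 268 were 174 (10.2%) of the 1704. Besides ALOX5AP and FCMR, the largest differences upward were those of SPP1, at 1.17 (SE 0.10, adjusted p = 2.50e-08), AP3B2, GNG11, MT1E and ADORA3. GNG11, a G protein subunit, read 771, 696 and 696 with shBCAT1, against 335, 363 and 347 with shNT, and the adenosine receptor ADORA3 read 463, 363 and 375 with shBCAT1, against 187, 209 and 199.6 with shNT, with rises of 1.05 and 1.00. In the other lines AP3B2, GNG11 and ADORA3 lay at the level of dim probes, between 82.3 and 94.4 with shNT. The metal-binding MT1E rose by 1.18, and the differences of AP3B2, GNG11, MT1E and ADORA3 were 1.12, 1.03, 0.98 and 0.96. ZNF395 and IGLL1 also stand there (1.15 and 0.92), and they fell in the other lines while SKM1 had 0.03 and -0.11 near background. Downward, PRG2 had -2.47 (SE 0.10, adjusted p = 1.09e-13), beside levels near the top of the scale in the other lines. CCNA1, a cyclin of leukaemic and germ cells, read 874, 834 and 846 with shBCAT1, against 1424, 1448 and 1435 with shNT (-0.75), against log2 differences of 1.60 in HL-60 and 0.53 in MOLM13, a difference of -1.82. The secreted IGFBP7 fell in SKM1 (-0.76) and had 0.27 in HL-60 and 0.99 in MOLM13, and LYZ had -0.48 (adjusted p = 0.0649), against 1.54 and 0.38. Their differences were -1.39 and -1.44. The fall of LYZ passed the test in the fit of the SKM1 arrays alone (adjusted p = 4.42e-05). The stathmin STMN3 rose by less in SKM1 (0.72) than in HL-60 (1.96) or MOLM13 (2.20), a difference of -1.37. SCG2, a secretogranin, and SIGLEC14, a sialic acid receptor with a near-identical relative, stayed at the level of dim probes in SKM1, with differences of -1.83 and -1.55 beside rises in both other lines, which were 1.05 and 1.42 in MOLM13.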

How the data were processed

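Total RNA of 18 samples was labelled for 1-colour Illumina arrays, per the labels' protocols. The authors deposited linear probe intensities for 48107 probes, between 60.4 and 22917.5. The array medians lay within 0.0337 of each other on the log2 scale, so the values had been normalized between arrays before deposit, by a method not given in the sources used here, as are scan dates and slides.

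Log2 of these deposited intensities was analysed without further correction. Of the probes, 30113 carried 1 gene symbol in the platform annotation, 8 several and 17986 were not listed there, and symbols were updated through RefSeq (30074 probes matched by Entrez ID). Each gene was read by its brightest probe, and a gene was tested when its brightest group mean was above the median of all probe values (15288 of 20046 genes). Missing values numbered 15 in the table. One limma fit (version 3.58.1, R 4.3.3) of 6 group means, with 12 residual degrees of freedom, gave the change in each line and the difference between the change in SKM1 and the mean change in HL-60 and MOLM13, with Benjamini-Hochberg adjustment over all tested genes at 0.05. No block or covariate was used. The fit was tested on simulated data. The number of arrays limits the precision, and no probe has an interval of its own from a single array.

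The named genes are BCAT1, the 20 largest rises and 20 largest falls with groups that do not overlap, the 10 largest differences from the other lines in each direction, the first 3 members of each of 48 gene lists, list members past the test and marker genes. Not all of them are described. Neighbours of PRTN3 and PRG2 and the metallothioneins were named after their values were seen. The comparison and the lists were chosen with earlier results of these data known, so their counts are descriptions. Upstream windows were read with Python 3.11.15 and pandas 2.3.3, and figures drawn with matplotlib 3.10.9. Alternatives were SKM1 arrays alone, a replicate block, array weights, quantile normalization, normexp background correction (offset 50), other filters on dim genes, the mean of all probes, trended robust variances and leaving out each SKM1 array.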

Additional observations from a re-analysis of the deposited data

Results flagged for a closer look

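In these genes the change in SKM1 differed from that in HL-60 and in MOLM13, each taken alone, and from their mean, by the limma test of the difference (adjusted p under 0.05). The values are the log2 change in SKM1 minus the mean log2 change of the other lines. Granule and secretory genes, neighbours of the elastase genes and the granulocytic factor CEBPD had lower changes in SKM1, with differences of -2.47 for PRG2, -1.78 for MPO, -1.11 for RNASE2, -1.09 for ELANE, -1.07 for AZU1, -0.86 for CFD, -0.62 for PALM, -1.44 for LYZ and -0.38 for CEBPD. Receptors, lineage factors and surface-related genes were lower too, at -1.55 for CSF1R, -1.18 for IRF8, -0.92 for CCR2, -0.62 for CSF3R, -1.55 for SIGLEC14, -0.87 for NFE2, -0.44 for GFI1, -0.76 for MYB, -0.84 for ITGAL, -0.82 for HERC5 and -0.68 for FUT4. Secreted, metabolic, survival and other genes with lower changes had -1.83 for SCG2, -1.82 for CCNA1, -1.39 for IGFBP7, -1.37 for STMN3, -1.38 for BEND5, -1.28 for NUDT7, -1.12 for TMEM45A, -0.69 for PLOD2, -0.51 for IDH3G, -0.57 for DNMT3L, -0.81 for BCL2, -0.55 for NOTCH3, -0.96 for SERPINB8, -0.91 for PLAU and -0.78 for SLPI.

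Higher changes in SKM1 were found for eicosanoid, annexin and receptor genes and for TRIB2, at 1.74 for ALOX5AP, 0.67 for ANXA1, 0.77 for FPR2, 0.48 for PTGS2, 1.44 for FCMR, 0.65 for TREM1, 0.70 for TRIB2 and 0.62 for TNFRSF10B. For genes of amino acid supply, glucose use and heat shock the differences were 1.08 for SLC7A5, 0.78 for ASNS, 0.44 for PFKFB2 and 0.62 for HSPA1A. The remaining higher values were 1.17 for SPP1, 1.12 for AP3B2, 1.03 for GNG11, 0.98 for MT1E, 0.96 for ADORA3, 0.88 for RGS2, 0.60 for SERPINA1, 0.56 for SYP, 0.46 for TMEM121B, 1.15 for ZNF395 and 0.92 for IGLL1. Of these genes, SLC7A5, ASNS, ZNF395, IGLL1, SCG2, SIGLEC14, LYZ and CSF3R did not pass the test of the change in SKM1 in the pooled fit. In the fit of the SKM1 arrays alone LYZ (adjusted p = 4.42e-05), SLC7A5 (adjusted p = 0.00592) and ASNS (adjusted p = 0.0495) passed. LYZ also passed with the mean of its probes (adjusted p = 0.0333). In HL-60, MOLM13 or both, some of the flagged genes lay at an end of the scale with both hairpins (group means under 100 or above 12000). A change may not be measurable there. Both other lines were dim for AP3B2, GNG11, ADORA3, FPR2, PFKFB2, NOTCH3, DNMT3L and PLOD2. PRG2 was near the top in both, and ELANE was dim in HL-60 and near the top in MOLM13. MPO was near the top in HL-60 and AZU1 in MOLM13. FCMR, TREM1, HSPA1A, SERPINA1, PTGS2, PALM, SLPI, CCR2, TMEM45A and BEND5 were dim in HL-60, and SPP1 and TRIB2 in MOLM13. No group held more than 3 arrays, so single arrays were not tested as outliers.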

How the results depend on the processing

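BCAT1 kept its direction and call under every alternative run, with log2 differences between -3.30 and -3.23 when each array was left out. The 1704 calls in SKM1 became 3000 when the SKM1 arrays were fitted alone (1326 higher and 1674 lower) and 3089 with array weights (1371 higher and 1718 lower). The median within-group SD was 0.0819 in SKM1, 0.118 in HL-60 and 0.111 in MOLM13, and the cause of the higher counts was not tested. Other normalization, background, filter, probe and variance settings gave between 1536 and 1729 calls, and leaving out 1 array between 1186 and 1290.

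The 1003 genes whose change differed from the other lines became 1871 with array weights and between 646 and 741 with 1 array left out. The lowest counts, 659 and 646, came without shNT replicates 2 and 3. With the replicate block there were 1966 changed genes, 1666 of them shared with the same sign, and 1191 that differed between lines. Deviations of same-numbered arrays correlated with r of -0.10, -0.14 and 0.04 in SKM1, so no shared deviation was seen there. In MOLM13 the deviations correlated with 0.28, 0.13 and 0.38. With 3 arrays per group these values cannot show whether same-numbered samples were paired.

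Among named genes called in the main fit or in the alternative, RFC3 was the only one that reversed. Its log2 difference was -0.012 under the mean of all probes, against 0.35 by its brightest probe, and the cause was not tested. Over all named genes and settings, 4512 values kept their side of the threshold, 357 lost the call (83 genes) and 33 gained it (15 genes). Values called in neither fit were counted as kept whatever their sign. Counts of list members are not in this tally. Without detection calls in the table, genes near the median of all probe values have no measured distance from background.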

Other observations

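Metallothioneins, small cysteine-rich proteins that bind zinc and copper and are encoded side by side on chromosome 16, were looked up after the rise of MT1E was seen. MT1E read 2511, 2528 and 2515 with shBCAT1, against 1208, 1086 and 1050.3 with shNT (log2 difference 1.18), and a second, dim probe gave -0.26. MT2A read 2250.4, 2099 and 1992 with shBCAT1, against 1112, 1111 and 1043 with shNT (log2 difference 0.96), and MT1F read 948, 856 and 821 with shBCAT1, against 601, 611 and 645 with shNT (0.50). These 3 passed the limma test in SKM1. MT1X read 4622, 4258 and 4262 with shBCAT1, against 3548, 3397 and 3496 with shNT (0.33, adjusted p = 0.0808), with no overlap between the groups. MT1B, MT1G, MT1H and MT1IP lay near the median of all probes and did not pass. In HL-60 and MOLM13 the log2 differences were 0.12 and 0.27 for MT1E, 0.94 and 0.46 for MT2A and 1.18 and 0.24 for MT1X. Metallothionein genes are close paralogues, so the probes may read each other's transcripts.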
